A study of Mus musculus with 20 samples.

Results

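The genes described here are 9 mouse genes of leukocyte adhesion, chosen by symbol from the 54532 genes of the count table. They encode 4 integrin α subunits (Itgam, Itgal, Itgax and Itga4), the 2 β subunits that these pair with (Itgb2 and Itgb1), the selectin ligand Selplg, the hyaluronan receptor Cd44 and the integrin ligand Icam1. All 9 were found, and all 9 passed the filter on low counts in both sample types, among 11632 genes tested in neutrophils and 17458 in lung. RNA-seq libraries were made from 20 samples of C57BL/6 mice, with neutrophils (PMN) in 9 and lung in 11. The neutrophils came from 3 WT, 3 Ager AHA/AHA and 3 Ager-/- samples, and the perfused lung from 3 WT, 4 Ager AHA/AHA and 4 Ager-/- samples. Ager encodes RAGE, the receptor for advanced glycation end-products. The Ager AHA/AHA mice carry a germline triple mutation of the heparan sulfate-binding site, made by CRISPR knock-in in C57BL/6J eggs, and the Ager-/- mice are a germline knockout line received from another laboratory. The sources used here do not say whether the WT mice were littermates of either line, so the genotype and the origin of the line cannot be told apart. All neutrophil samples, WT included, were washed from dorsal air pouches 4 hr after 1 μg of LPS was injected, and the labels give no LPS treatment for lung. The sources do not give age or sex.

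Integrins are heterodimers of an α and a β subunit that switch between a resting and a ligand-binding shape. On neutrophils, PSGL-1 (the product of Selplg) and CD44 bind selectins and slow the cell on the vessel wall, and the β2 integrins LFA-1 (Itgal with Itgb2) and Mac-1 (Itgam with Itgb2) then hold it to ICAM-1 on the endothelium. RAGE has itself been described as an endothelial ligand of Mac-1, and Itga4 with Itgb1 forms VLA-4, the receptor of VCAM-1 on monocytes and lymphocytes. In lung, ICAM-1 is also carried by alveolar epithelial cells, and Itgax (CD11c) by alveolar macrophages and dendritic cells.

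In brief, the differences between genotypes were small in both sample types. In Ager-/- neutrophils Itgam was lower than in WT, 0.686-fold, and in Ager-/- lung Icam1 was higher, 1.65-fold. No member passed the test between Ager AHA/AHA and WT in either sample type. Both calls were near the threshold of an adjusted p of 0.05, and each was lost when 1 of several libraries was left out.

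The upstream sequences of Icam1 and Itgam are shown because these are the only members called between a mutant and WT. The RefSeq promoter table (GRCm38.p6, the assembly called mm10) held 6 of the 9 members, Itgam, Itgax, Itga4, Itgb1, Cd44 and Icam1. Each window is the 250 bases before the gene's start, 5′ to 3′ on the gene's strand, and capitals mark matches on either strand to GGAAATTCC (a Rel-type letter string), GGGCGG (Sp1 type), GAGGAA (PU.1 type) or TGANTCA (AP-1 type). No marked matches overlapped. The Icam1 window is chr9:21015690-21015939 and the Itgam window is chr7:128062390-128062639, both on the plus strand.
Icam1: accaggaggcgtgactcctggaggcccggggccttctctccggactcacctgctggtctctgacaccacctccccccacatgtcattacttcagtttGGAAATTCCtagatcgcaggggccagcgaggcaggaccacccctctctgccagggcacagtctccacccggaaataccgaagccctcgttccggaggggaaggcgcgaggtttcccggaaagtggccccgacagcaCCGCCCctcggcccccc
Itgam: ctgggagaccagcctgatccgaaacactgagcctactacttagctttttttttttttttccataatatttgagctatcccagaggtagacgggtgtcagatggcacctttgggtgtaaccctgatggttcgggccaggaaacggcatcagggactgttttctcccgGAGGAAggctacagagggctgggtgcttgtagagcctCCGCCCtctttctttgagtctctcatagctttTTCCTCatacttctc
In Icam1 the Rel-type letters lay 153 to 145 bases before the start and the Sp1-type letters 17 to 12 bases before it. Among 32817 RefSeq windows of the same length, 0.286% held GGAAATTCC and 32.7% held GGGCGG. GGAAATTCC was the only Rel-type string searched, and its share among windows does not test whether Icam1 stands out. In Itgam, GAGGAA matched at 84 to 79 bases before the start and, on the other strand, at 15 to 10 bases, and 23.3% of all windows held it. GGGCGG matched the Itgam window on the other strand, 47 to 42 bases before the start. Starts are RefSeq's, which for Icam1 is upstream of the gene start in the count table. The letters TGANTCA, held by 6.75% of windows, were in neither, and of the members they matched only the Itgax window. A match describes the letters and does not show that a factor binds there.

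Itgam, Itgal and Itgax lie on chromosome 7 of mm10, all on the plus strand. Itgam (chr7:128062640-128118491) is followed by Itgax (chr7:128129547-128150657) after 11055 bases, and Itgal (chr7:127296260-127335138) lies 727501 bases before Itgam. Itga4 (chr2:79255426-79333123) and Cd44 (chr2:102811141-102901665, minus strand) are both on chromosome 2. Itgb2 is on chromosome 10, Itgb1 on chromosome 8, Selplg on chromosome 5 and Icam1 on chromosome 9 (chr9:21015985-21028817). Itgam, Itga4, Cd44 and Icam1 overlap another annotated gene, whose counts reached at most 43 in any library. The sources do not state whether strand was used in counting. Counts of the 9 members ranged from 49 (Itgam in an Ager-/- lung) to 58225 (Cd44 in Ager-/- neutrophils), and library totals from 16764589 to 24818703 counts.

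The 12 neutrophil markers examined summed to between 27420 and 49710 CPM (counts scaled to a common library size with edgeR's TMM factors within a sample type) in the neutrophil libraries, and to between 126.8 and 487.1 CPM in lung. The alveolar epithelial markers summed to between 39490 and 52970 CPM in lung. Ager, the altered gene, was at 2401 ± 430 CPM (SD, n = 3) in lungs of WT mice, 2068 ± 575 CPM (n = 4) in those of Ager AHA/AHA mice and between 25.4 and 29.8 CPM in the 4 Ager-/- lungs, as the lung labels require. In neutrophils Ager was barely detected and did not follow the labels. WT libraries had 15 to 37 counts, Ager AHA/AHA libraries 15 to 44, and 60 to 101 were in the libraries labelled Ager-/-, which were the highest (log2 fold change against WT 1.07, 95% interval 0.33 to 1.82, edgeR adjusted p = 0.0581). The Ager reads therefore give no check of the neutrophil genotypes, and Ager-/- neutrophils below means the libraries labelled so. Lung replicate 4 of Ager AHA/AHA held the 487.1 CPM of neutrophil markers, where the other lung libraries held at most 245.7 CPM. WT neutrophil replicate 2 held 230.8 CPM of fibroblast markers, where the other neutrophil libraries held at most 66.3 CPM. In both mutants' neutrophils the summed T cell markers were higher than in WT, 31.8 to 64.2 CPM in Ager-/- and 22.9 to 40.6 CPM in Ager AHA/AHA where the WT median was 14.4 CPM. The lowest and highest macrophage sums were 558.2 and 656.9 CPM in Ager-/- neutrophils and 387.4 and 494.8 CPM in WT. Dendritic and antigen-presenting markers summed to 1092 to 1484 CPM in Ager AHA/AHA neutrophils and 1207 to 1591 CPM in those of Ager-/-, above the 621.4 to 927.3 CPM of WT. NK cell markers summed to 65.2 to 94.9 CPM in Ager AHA/AHA and 52.0 to 119.5 CPM in Ager-/-, where WT had 40.3 to 59.7 CPM. In these bulk samples fewer cells of a type and less RNA per cell cannot be told apart.

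In WT neutrophils the members spanned a wide range of levels per length, given here as RPKM (TMM-scaled CPM divided by the gene length in kb). Cd44, the hyaluronan receptor, was the highest at 401 ± 58.6 RPKM (SD, n = 3). Icam1 at 262 ± 11.2 RPKM and Itgb2 at 260 ± 21.2 RPKM followed, and their ranges overlapped. Selplg (61.0 ± 13.4 RPKM), Itgam (51.8 ± 6.32 RPKM) and Itgal (46.1 ± 6.00 RPKM) formed a run in which each neighbour overlapped the next. Itgb1 (24.0 ± 1.26 RPKM), Itgax (15.6 ± 3.28 RPKM) and Itga4 (2.85 ± 0.751 RPKM) were each below the gene before them with no overlap. The order was the same in Ager AHA/AHA neutrophils. In Ager-/- neutrophils Itgal and Itgam changed places, at 36.9 ± 7.34 and 35.6 ± 2.38 RPKM, and their ranges overlapped.

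In WT lung the order was different, with the widely expressed β1 subunit first. Itgb1 was at 167 ± 18.1 RPKM, Icam1 at 54.9 ± 12.3 RPKM, Cd44 at 15.0 ± 2.22 RPKM and Itgb2 at 14.8 ± 2.05 RPKM, the last 2 with overlapping ranges. Itgax (7.11 ± 0.233 RPKM) was above Selplg (5.21 ± 0.898 RPKM) and Itgal (4.41 ± 0.711 RPKM), whose ranges overlapped. Itga4 (1.03 ± 0.0482 RPKM) and Itgam (0.806 to 1.24 RPKM) were the lowest and also overlapped.

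WT neutrophils and WT lung were compared in 1 fit of all 20 libraries, in which sample type, LPS treatment and cell makeup differ together and cannot be told apart. All 9 members passed the test, where 83.4% of the 18180 genes tested did, and for all 9 the libraries of the groups did not overlap, as for 85.6% of genes. A count of all members is thus near what most genes showed. The scaling moves this comparison, since the median log2 fold change of all genes was -1.24 with TMM and -3.72 with library totals, and the genes called higher and lower in neutrophils were 5316 and 9853 with TMM and 2415 and 14539 with library totals. The β2 subunits were higher in neutrophils with either scaling. Itgam differed by a log2 fold change of 8.12 (SE 0.251, edgeR adjusted p = 6.82e-20), Itgb2 by 6.50 (SE 0.208), Itgal by 5.74 (SE 0.205) and Itgax by 3.48 (SE 0.155). With library totals these log2 fold changes were 5.61, 3.99, 3.25 and 0.98. Cd44 (7.10), Selplg (5.90), Icam1 (4.62) and Itga4 (3.84) were also higher in neutrophils, and with library totals they were at 4.58, 3.38, 2.10 and 1.35. Itgb1 was the exception, lower in neutrophils by -0.44 on the log2 scale (SE 0.146, edgeR adjusted p = 0.00801). It was at -2.95 with library totals, and its call was lost with RLE scaling (-0.23, adjusted p = 0.160) and with DESeq2 (-0.25, adjusted p = 0.0837).

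The makeup of the β2 integrin transcripts differed between the sample types more than between genotypes. Of the summed RPKM of Itgam, Itgal and Itgax in WT neutrophils, Itgam made up 45.7% ± 4.08 (SD, n = 3), Itgal 40.7% ± 4.03 and Itgax 13.6% ± 1.63. In WT lung the largest was Itgax at 57.2% ± 4.67, then Itgal at 35.2% ± 3.95 and Itgam at 7.63% ± 1.81. For Itgam and Itgax the neutrophil and lung libraries did not overlap in any genotype. For Itgal they overlapped in WT and not in either mutant. In Ager-/- lung Itgam was at 5.04% ± 0.847 (n = 4), and every one of these libraries (at most 6.12%) was below every WT library (at least 6.26%), a difference that was not tested. The sum of the 3 α transcripts over the Itgb2 transcript, both per length, was 0.436 ± 0.0335 in WT neutrophils and 0.852 ± 0.0823 in WT lung. Itga4 over Itgb1 was 0.118 ± 0.0289 in WT neutrophils and 0.00617 ± 0.000564 in WT lung. These ratios are of transcripts and depend on the gene lengths the counts were divided by.

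**Figure D1:**
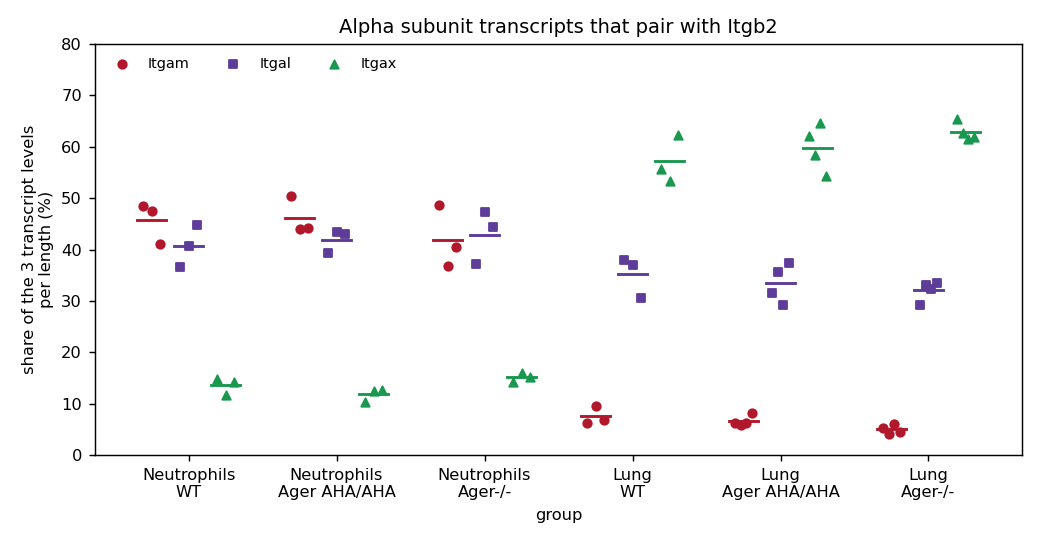
Share (%) of the summed transcript level per length of Itgam, Itgal and Itgax taken by each of these 3 α subunits, for the 3 genotypes in neutrophils and lung. Each point is a library and each bar is a group mean. Itgam and Itgal led in neutrophils, with WT means of 45.7% and 40.7%, and Itgax led in lung, with a WT mean of 57.2%.

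Infiltrated neutrophils of the mutants were compared with WT, where genotype and the origin of the line cannot be told apart. In Ager-/- against WT, 1 of 9 members passed the test, lower, where 10.7% of all genes tested passed. For 4 of 9 members the Ager-/- and WT libraries did not overlap, as for 35.6% of all genes. The members' share is close to the background in both counts. The median log2 fold change was -0.27 over the members and 0.01 over all genes tested, with 7 members below 0 and 2 above. Over all genes 774 were called higher and 466 lower, and with library totals in place of TMM 2112 and 74, or 760 and 896 with DESeq2. The background itself rests on single libraries, since 180 genes in place of 1240 were called without WT replicate 1. Between Ager AHA/AHA and WT, 0 of 9 members passed in edgeR (background 3.64%, 209 genes higher and 214 lower, or 188 and 75 with library totals, and 40 in place of 423 called without WT replicate 1) and 0 in DESeq2, 1 of them at an unadjusted p under 0.05. For 3 of 9 members those libraries did not overlap (background 25.0%). In that comparison 2503 of the 11632 genes tested had an unadjusted p under 0.05. Between Ager-/- and Ager AHA/AHA, 0 of 9 passed in edgeR (background 0.533%, 30 genes higher and 32 lower, or 45 and 18 with library totals and 45 and 94 with DESeq2) and 0 in DESeq2, 1 at an unadjusted p under 0.05, and 3 of 9 did not overlap (background 16.1%). Between these mutants 1145 of the 11632 genes tested had an unadjusted p under 0.05. The comparisons with WT share the WT libraries, so they are not independent of each other.

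Itgam encodes CD11b, the α subunit of Mac-1, which binds ICAM-1, fibrinogen and complement fragments. The authors reported normal CD11b protein on the surface of Ager-/- air-pouch neutrophils, and the values here are of the transcript only. Itgam was at 296.9, 240.7 and 243.2 CPM in WT neutrophils, 239.8, 222.6 and 209.9 CPM in Ager AHA/AHA, and 192.4, 171.3 and 172.1 CPM in Ager-/-. The Ager-/- libraries were below all others, and the Ager AHA/AHA libraries were below the WT libraries by a narrow margin, 239.8 CPM at the highest against 240.7 CPM at the lowest. In Ager-/- against WT the log2 fold change was -0.54 (SE 0.166, 95% interval -0.89 to -0.20, edgeR adjusted p = 0.0444), with means of 178.6 ± 12.0 CPM and 260.3 ± 31.8 CPM (SD, n = 3 each). In Ager AHA/AHA the log2 fold change against WT was -0.22 (95% interval -0.56 to 0.13, adjusted p = 0.463).

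The call of Itgam was weak. With a single library left out it passed in 2 of 9 fits, and the adjusted p ranged from 0.0353 to 0.215. The libraries without which it was lost were all 3 of WT (adjusted p 0.215, 0.0605 and 0.0668), Ager AHA/AHA replicates 4 and 6 (0.0619 and 0.0624) and Ager-/- replicates 4 and 6 (0.167 and 0.165). The log2 fold change stayed between -0.62 and -0.41 in these fits, and it was -0.60 without WT replicate 2, the library with fibroblast transcripts. TMM factors were 1.14 to 1.21 in Ager-/- and lower in all WT neutrophils (lowest 0.789). With library totals in place of TMM the median of all genes rose to 0.40 and Itgam was at -0.14 (adjusted p = 0.540), so it stayed below the median gene but its call was lost. Within the libraries that share an FPKM constant, which the authors' FPKM divide into 2 sets, the log2 difference of Itgam was -0.56 in the first set (2 libraries a group) and -0.50 in the second (1 library a group). In the same neutrophil comparison, 3 of 12 neutrophil markers fell and 5 of 10 tested macrophage markers rose, and the summed neutrophil markers were 27420 to 30820 CPM in Ager-/- and 34570 to 49710 CPM in WT. The part of these shifts in the Itgam result was not tested.

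Itgb2, the common β2 subunit, was at 869.2, 754.2 and 760.9 CPM in WT neutrophils, 875.5, 719.8 and 706.2 CPM in Ager AHA/AHA, and 483.7, 610.5 and 588.3 CPM in Ager-/-. All Ager-/- libraries were again below all others, while those of Ager AHA/AHA and WT overlapped. Its log2 fold change in Ager-/- against WT was -0.50 (SE 0.174, 95% interval -0.87 to -0.14), which did not pass in edgeR (adjusted p = 0.0662) and did in DESeq2 (adjusted p = 0.0174). It passed under 2 of 19 alternatives, and with library totals it was at -0.11 (edgeR adjusted p = 0.608). Against Ager AHA/AHA it was -0.45 (SE 0.174, edgeR adjusted p = 0.414). Every neutrophil library held at least 11440 counts of this gene.

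The other β2 partners did not pass. Itgal, the α subunit of LFA-1, was at 293.1, 269.8 and 346.6 CPM in the WT libraries, 244.4, 287.3 and 267.6 CPM in Ager AHA/AHA, and 192.1, 288.3 and 246.3 CPM in Ager-/-. Ager-/- replicate 1 was the lowest, and the groups overlapped (log2 fold change in Ager-/- -0.32, 95% interval -0.71 to 0.06). Itgax, the CD11c subunit, was at 86.8, 57.1 and 81.1 CPM in the WT libraries, 46.9, 60.5 and 57.4 CPM in Ager AHA/AHA, and 53.7, 71.3 and 61.8 CPM in Ager-/-. It was the member nearest to a call in Ager AHA/AHA, at a log2 fold change of -0.45 (SE 0.191, unadjusted p = 0.0307, edgeR adjusted p = 0.182), with WT replicate 2 inside the Ager AHA/AHA range.

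The VLA-4 subunits lay above 0 in both mutants and did not pass. Itga4 was at 27.7, 46.0 and 45.7 CPM in the WT libraries, 46.8, 61.7 and 58.1 CPM in Ager AHA/AHA, and 30.8, 62.0 and 53.6 CPM in Ager-/-. All Ager AHA/AHA libraries were above all WT libraries (log2 fold change 0.48, 95% interval -0.03 to 0.99, adjusted p = 0.260), and WT replicate 1 and Ager-/- replicate 1 were well below the rest of their groups. Itgb1 stayed within 94.7 to 103.9 CPM in WT libraries, 102.2 to 103.7 CPM in those of Ager AHA/AHA and 104.9 to 115.5 CPM in those of Ager-/-. Its Ager-/- libraries were above all others (log2 fold change against WT 0.18, 95% interval -0.15 to 0.51, adjusted p = 0.451). With library totals it passed, at 0.57 (adjusted p = 0.0217), against a median of all genes of 0.40 under that scaling.

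The rolling receptors and the ligand did not pass either. Selplg, which encodes the selectin ligand PSGL-1, ranged over 223.9 to 326.3 CPM in WT libraries, 197.1 to 240.6 CPM in those of Ager AHA/AHA and 211.3 to 242.4 CPM in Ager-/-, and the groups overlapped. Cd44 was at 3177, 2463 and 2520 CPM in the WT libraries, 2312, 2405 and 2138 CPM in Ager AHA/AHA, and 2177, 2271 and 2046 CPM in Ager-/-. All libraries of both mutants were below all WT libraries, by log2 fold changes of -0.25 (95% interval -0.61 to 0.11) and -0.33 (95% interval -0.69 to 0.03), and neither passed. Icam1, the ligand of LFA-1 and Mac-1, was at 1158, 1180 and 1086 CPM in the WT libraries, 1469, 1190 and 1091 CPM in Ager AHA/AHA, and 847.3, 1084 and 1131 CPM in Ager-/-. Its groups overlapped, with log2 fold changes of 0.13 (95% interval -0.25 to 0.51) and -0.16 (95% interval -0.54 to 0.22) against WT. With library totals the uncalled differences of Itgal, Itgax, Selplg, Cd44 and Icam1 in Ager-/- turned to above 0, each still below the median gene's 0.40.

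**Figure D2:**
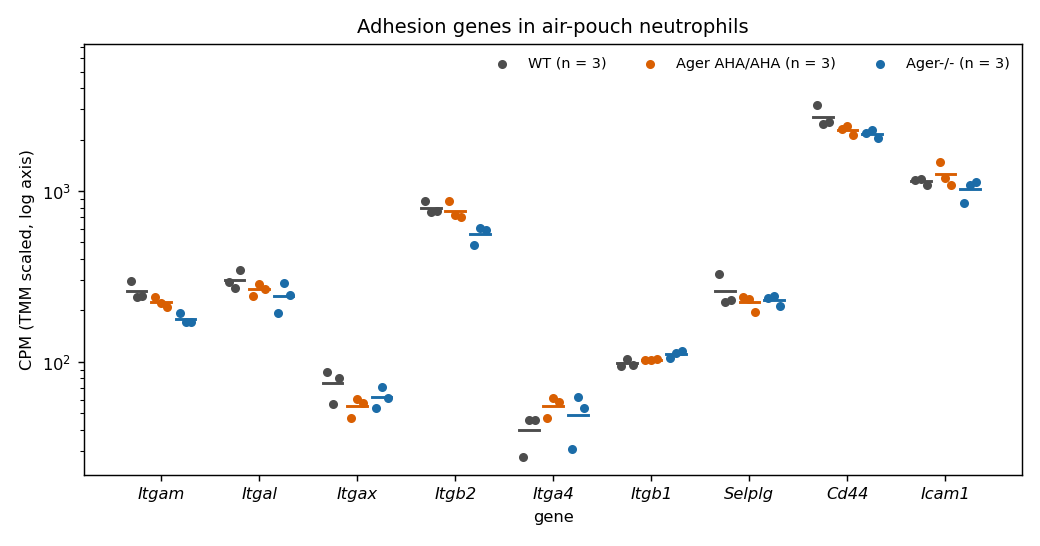
Expression of the 9 adhesion genes in air-pouch neutrophils, in TMM-scaled CPM on a log axis. Each point is a library and each bar the mean of 3 libraries of a genotype. The Ager-/- libraries of Itgam (171.3 to 192.4 CPM) and Itgb2 (483.7 to 610.5 CPM) lie below all WT libraries.

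Lung, where Ager is abundant, was compared between the same genotypes. In Ager-/- against WT, 1 of 9 members passed, higher, where 3.10% of all genes tested did, and for 3 of 9 the libraries did not overlap (background 15.8%). The median log2 fold change was -0.01 over the members and 0.01 over all genes. In Ager AHA/AHA against WT, 0 of 9 passed in edgeR (background 0.172%) and 0 in DESeq2, 0 of them at an unadjusted p under 0.05, and for 0 of 9 the libraries were apart (background 4.74%). In Ager-/- against Ager AHA/AHA, 0 of 9 passed in edgeR (background 3.16%) and 0 in DESeq2, 2 at an unadjusted p under 0.05, and 0 of 9 were apart (background 8.27%). Of all 17458 genes tested, 809 had an unadjusted p under 0.05 in Ager AHA/AHA against WT and 2389 between the mutants.

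Icam1 was the member that rose in Ager-/- lung. It was at 247.6, 288.4 and 182.3 CPM in the WT libraries, 272.7, 237.0, 278.3 and 391.1 CPM in Ager AHA/AHA, and 348.1, 414.9, 390.7 and 428.2 CPM in Ager-/-. Every Ager-/- library was above every WT library and above 3 of the 4 Ager AHA/AHA libraries, whose replicate 4 stood among the Ager-/- values. The log2 fold change in Ager-/- against WT was 0.72 (SE 0.174, 95% interval 0.35 to 1.10, edgeR adjusted p = 0.0362), with means of 395.5 ± 35.2 CPM (SD, n = 4) and 239.4 ± 53.5 CPM (n = 3). In Ager AHA/AHA against WT it was 0.30 (95% interval -0.07 to 0.67, adjusted p = 0.947), and in Ager-/- against Ager AHA/AHA 0.42 (SE 0.158, adjusted p = 0.208). Without Ager AHA/AHA replicate 4 the latter passed, at 0.60 (adjusted p = 0.0303), and the difference of Ager AHA/AHA from WT was 0.12 (adjusted p = 0.999).

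The call of Icam1 against WT held in 6 of 11 fits with a library left out, with adjusted p from 0.0101 to 0.161 and log2 fold changes from 0.55 to 0.88. It was lost without WT replicate 1 (adjusted p = 0.134) or WT replicate 3 (0.161), and without Ager-/- replicate 2 (0.0863), replicate 4 (0.0754) or replicate 5 (0.101). WT replicate 3 held the lowest value, and it is the only WT library of the second FPKM set. Within the first set (2 libraries a group) the log2 difference from WT was 0.51, and within the second (2 Ager-/- libraries against 1 WT library) 1.17. Fitting only the first set gave 0.53 (adjusted p = 0.137), and the FPKM set as a covariate gave 0.71 (adjusted p = 0.0631). The marker sums of the cell types that carry ICAM-1 did not all move the same way. Endothelial markers summed to 1498 to 1856 CPM in Ager-/- lung and 1948 to 1996 CPM in WT, with 1 of 8 called lower. Their median log2 fold change was -0.30. Alveolar epithelial markers summed to 41500 to 52970 CPM and 42550 to 48250 CPM, which overlapped, with 3 of 10 called higher and 0 lower. Sftpc, at 26450 to 36650 CPM in the lung libraries, made up most of that sum. The median log2 fold change of these 10 was 0.27. Macrophage markers summed to 681.8 to 966.3 CPM in Ager-/- and 1052 to 1125 CPM in WT, with 1 of 12 called, higher. The median log2 fold change of these 12 was 0.06. T cell markers summed to 45.9 to 59.7 CPM in Ager-/- and 75.7 to 80.7 CPM in WT, and NK cell markers to 25.5 to 38.9 CPM and 64.9 to 80.1 CPM. The part of these shifts in the Icam1 result was not tested.

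The β2 integrins did not pass in lung. Itgam was at 4.05, 6.25 and 4.08 CPM in the WT libraries, 3.99, 3.59, 3.74 and 6.14 CPM in Ager AHA/AHA, and 3.59, 2.50, 4.04 and 3.11 CPM in Ager-/-. Every Ager-/- library was below every WT library, the closest pair being 4.04 and 4.05 CPM. At 49 to 149 counts per library Itgam was the least precise member here, and its log2 fold change of -0.53 in Ager-/- had a 95% interval of -1.08 to 0.02 (adjusted p = 0.327). Itgax, which in lung marks alveolar macrophages and dendritic cells, was at 34.5, 32.9 and 35.1 CPM in WT and 42.5, 35.7, 38.8 and 40.4 CPM in Ager-/-. All Ager-/- libraries were above all WT libraries, a log2 fold change of 0.20 (95% interval 0.00 to 0.40, unadjusted p = 0.0461, adjusted p = 0.295). The summed macrophage markers were lower in every Ager-/- lung than in every WT lung. Over the 12 markers, however, the median log2 fold change was 0.06 and 1 was called, higher, so the sum does not describe the whole list. Apoe, the highest of them, ranged over 260.7 to 632.1 CPM in the lung libraries. The median sum of dendritic and antigen-presenting markers was 1805 CPM in Ager-/- and 2048 CPM in WT lung. The part of either marker list in the Itgax values was not tested. Itgal, at 23.6 to 32.1 CPM in WT and 25.8 to 29.8 CPM in Ager-/-, and Itgb2, at 39.3 to 51.7 CPM and 42.7 to 51.4 CPM, overlapped between these groups.

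The remaining members overlapped between all genotypes in lung. Itgb1 ranged over 604.7 to 751.4 CPM in WT libraries, 628.9 to 833.3 CPM in those of Ager AHA/AHA and 544.9 to 774.3 CPM in Ager-/-, and its 95% intervals against WT lay within -0.30 and 0.32 on the log2 scale. Itga4 was at 13.8 to 15.1 CPM in WT and 9.97 to 15.5 CPM in Ager-/-. Selplg was at 18.0 to 25.3 CPM in WT libraries, 21.0 to 34.5 CPM in those of Ager AHA/AHA and 18.1 to 21.4 CPM in Ager-/-. It differed between the mutants by -0.36 (SE 0.158, unadjusted p = 0.0395, adjusted p = 0.324). Cd44 was at 106.0, 114.2 and 85.0 CPM in WT and 107.9, 113.9, 113.7 and 143.1 CPM in Ager-/- (log2 fold change 0.23, 95% interval -0.04 to 0.50).

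**Figure D3:**
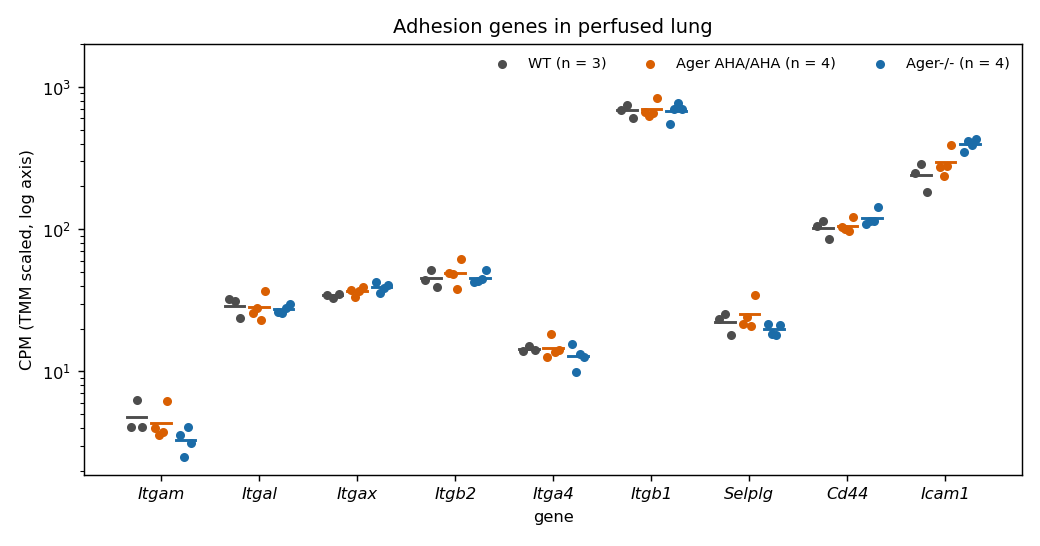
Expression of the 9 adhesion genes in perfused lung, in TMM-scaled CPM on a log axis. Each point is a library and each bar a genotype mean (3 WT, 4 Ager AHA/AHA and 4 Ager-/- libraries). Icam1 in the Ager-/- libraries (348.1 to 428.2 CPM) lies above all WT libraries (182.3 to 288.4 CPM). No other member was called.

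**Figure D4:**
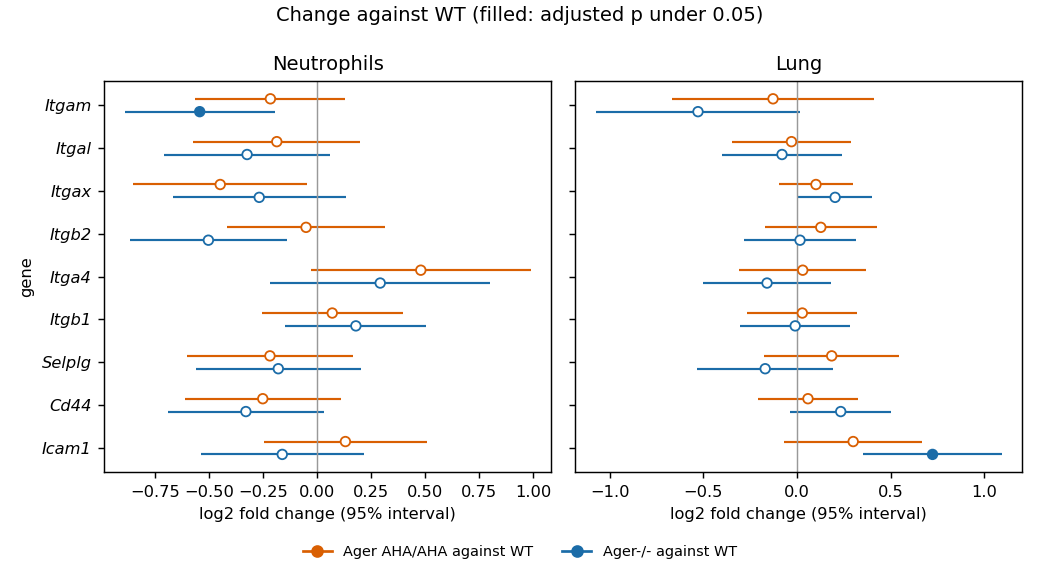
Log2 fold change of each member against WT with its 95% interval, in neutrophils (left) and lung (right), for Ager AHA/AHA and Ager-/-. Filled points passed an adjusted p of 0.05. Only Itgam in Ager-/- neutrophils (-0.54) and Icam1 in Ager-/- lung (0.72) are filled.

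Whether a genotype difference itself differed between neutrophils and lung was tested as an interaction over all 20 libraries. For Ager-/-, 1 of 9 members passed (background 9.13%, 1320 genes higher and 339 lower, or 2658 and 111 with library totals, 780 and 717 with RLE scaling and 1260 and 1266 with DESeq2), and for Ager AHA/AHA 0 of 9 passed in edgeR (background 1.46%, 198 genes higher and 68 lower, or 118 and 93 with RLE scaling and 521 and 512 with DESeq2), 1 at an unadjusted p under 0.05, and 1 in DESeq2 (Itgax, -0.56, adjusted p = 0.0434). Over all 18180 genes, 3029 had an unadjusted p under 0.05 for the Ager AHA/AHA interaction. The member that passed for Ager-/- was Icam1, whose Ager-/- difference was lower in neutrophils than in lung by -0.81 on the log2 scale (SE 0.259, adjusted p = 0.0491), where the median gene was at 0.15. This call held in 5 of 20 fits with a library left out (adjusted p from 0.0287 to 0.146), namely those without neutrophil Ager AHA/AHA replicate 2 or lung WT replicate 2, Ager AHA/AHA replicate 2 or 4, or Ager-/- replicate 1. With library totals it was lost, at -0.51 (adjusted p = 0.141). The fall of Itgam in Ager-/- neutrophils did not differ detectably from its uncalled difference in lung (interaction 0.07, 95% interval -0.48 to 0.62). For Itgb2 the interaction was -0.44 (95% interval -0.90 to 0.03, adjusted p = 0.243). DESeq2 also called Itgb2 (-0.62, adjusted p = 0.0437), Itgax (-0.57, adjusted p = 0.0223) and Cd44 (-0.67, adjusted p = 0.00832) for Ager-/-.

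**Figure D5:**
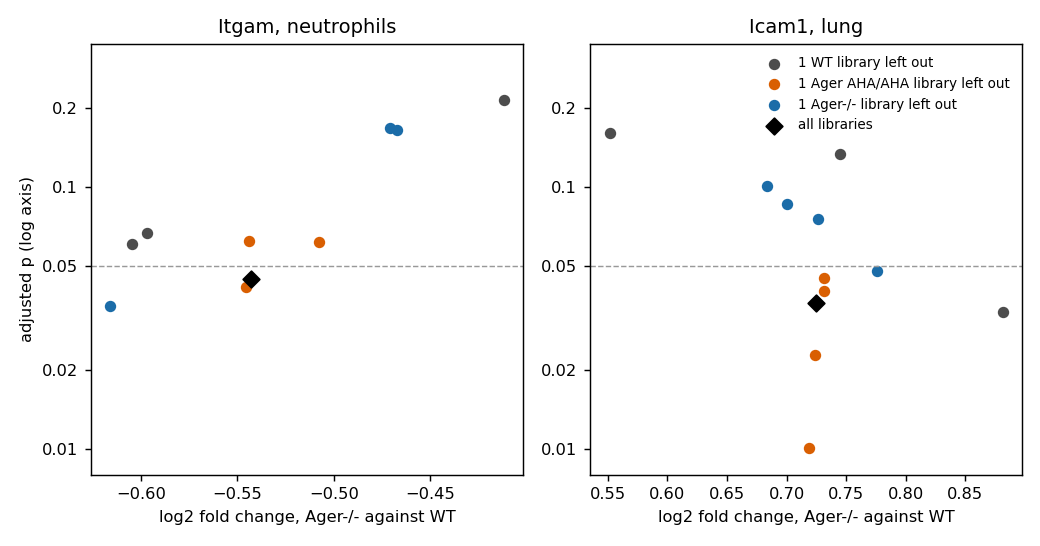
Log2 fold change (horizontal axis) and adjusted p (vertical log axis) of Itgam in Ager-/- neutrophils and of Icam1 in Ager-/- lung against WT, with all libraries (diamond) and with each library left out (circles, coloured by its genotype). The dashed line marks an adjusted p of 0.05. Of the circles, 2 of 9 for Itgam and 6 of 11 for Icam1 lie below the line.

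Other genes of the adhesion machinery were examined in 7 lists, of which 89 genes were tested in neutrophils and 110 in lung. In Ager-/- neutrophils 6 of the 89 were higher and 8 lower than in WT (median log2 fold change -0.23, against 0.01 over all genes), where 10.7% of all genes tested were called. Thbs1, the matrix protein thrombospondin-1, was the lowest, with 5833 ± 907 CPM (SD, n = 3) where WT had 17480 ± 1409 CPM (a log2 difference of -1.58, adjusted p = 0.00136). Pecam1, a junctional adhesion molecule that neutrophils use to cross endothelium, fell from 74.9 ± 6.81 to 37.3 ± 4.48 CPM (a log2 difference of -1.01, adjusted p = 0.00742). Cyth1, which encodes cytohesin-1, a regulator of β2 integrin adhesion, fell from 215.8 ± 43.2 to 103.7 ± 0.877 CPM (a log2 difference of -1.06, adjusted p = 0.00603). Itga5, the fibronectin receptor subunit, fell by 0.57 on the log2 scale (adjusted p = 0.0369), the osteopontin gene Spp1, which encodes a ligand of CD44 and integrins, by 0.70 (adjusted p = 0.0463), and the gelatinase gene Mmp9 by 0.65 (adjusted p = 0.0328). Parvg and Selp were the other genes that fell. Among those that rose, the T cell adaptor gene Skap1 was at 2.42 ± 0.633 CPM against 0.916 ± 0.199 CPM (log2 fold change 1.39, adjusted p = 0.0251) and Cd226, a receptor of T and NK cells, at 2.20 ± 0.289 CPM against 0.860 ± 0.502 CPM (log2 fold change 1.33, adjusted p = 0.0352). Both were at low levels in libraries whose T cell marker sums were also above WT, with 8 of 12 T cell markers called higher. Spn, Nectin2, Itga3 and Lama5 were the others. Of the 10 tested genes of selectin ligand glycosylation 0 were called in edgeR in either mutant against WT, and 0 had an unadjusted p under 0.05. Of all 11632 genes tested, 3553 in Ager-/- and 2503 in Ager AHA/AHA had such a p. Library totals, which raised the median gene to 0.40, were not tried on these lists.

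In Ager AHA/AHA neutrophils 1 of the 89 listed genes was higher than in WT and 3 were lower, where 3.64% of all genes tested were called. Skap1 was the higher gene (log2 fold change 1.38, adjusted p = 0.0437). Itga5 was at 69.8 ± 7.21 CPM (n = 3) against 112.5 ± 9.82 CPM (log2 fold change -0.69, adjusted p = 0.0307), Cyth1 at a log2 fold change of -0.77 (adjusted p = 0.0466) and Spp1 at -0.86 (adjusted p = 0.0372). These 4 genes also passed in Ager-/- against the same WT libraries. Between the mutants 0 of the 89 passed in edgeR, and 10 had an unadjusted p under 0.05. Of all 11632 genes tested, 0.533% passed and 1145 had an unadjusted p under 0.05.

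In lung, 0.172% of all 17458 genes tested were called between Ager AHA/AHA and WT, and 809 had an unadjusted p under 0.05. Of the 110 listed genes 0 passed in edgeR, and 5 had such a p. In Ager-/- against WT 4 were higher and 3 lower (median -0.03, against 0.01 over all genes), where 3.10% of all genes were called. Itga7, a laminin receptor subunit, rose from 14.4 ± 2.46 to 28.5 ± 4.90 CPM (log2 fold change 0.99, SE 0.162, adjusted p = 0.00378). The β6 subunit gene Itgb6, whose product activates TGF-β in lung epithelium, was at 36.9 ± 15.9 CPM (n = 4) against 16.3 ± 1.04 CPM (n = 3; log2 fold change 1.18, adjusted p = 0.0408). Nectin2 (0.54) was also higher. Srgn, the gene of the CD44-binding proteoglycan serglycin, fell by 0.61 on the log2 scale (adjusted p = 0.00915), the leukosialin gene Spn by 0.78 (adjusted p = 0.0145) and Itga8 by 0.72 (adjusted p = 0.0189). Against Ager AHA/AHA 4 of the 110 were higher and 8 lower in Ager-/- lung, where 3.16% of all genes were called. Itga7, Nectin2, Srgn, Spn and Itga8 were among them, each in the same direction as against WT. Others passed only between the mutants, among them Hyal1 (log2 fold change -0.70), Itga2 (-0.61), Podxl (-0.59), Fn1 (-0.57) and Itgb3 (0.57). Against WT the adjusted p of these was 0.0688 (Itgb3) or higher, and Hyal1 was at 0.01 on the log2 scale. The lists were chosen with earlier results of these data known.

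The genes nearest to a member in profile were taken by the root mean square (RMS) difference of log2 CPM, each gene centred on its own mean, over the libraries of 1 sample type. In neutrophils (9 libraries, 4190 genes of at least 10 CPM) Itgam was nearest to Nfkb2 (RMS 0.0524), Rela (0.0569) and Marcks (0.0641), while its own RMS deviation was 0.244. Itgb2 was nearest to Nfkbie (0.0550), Trappc9 (0.0578) and Irf9 (0.0658), with an own deviation of 0.261. Icam1 was nearest to Gripap1 (0.0556) and Cd44 to Tfe3 (0.0512). In lung (11 libraries, 10455 genes) Icam1, with an own deviation of 0.376, was nearest to Slc52a3 (0.115), Ndst1 (0.118) and Dag1 (0.119), and Itgb2 to the leukocyte actin-bundling gene Lcp1 (0.0732). The distances share the libraries and their scaling, and no p was computed for them.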

How the data were processed

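Per the submitters' processing notes, reads (150-base pairs) were base-called with CASAVA, trimmed with fastp, aligned to mm10 with STAR and counted with featureCounts, whose versions are not given. The authors deposited raw counts per gene, which were analysed here. The authors also deposited FPKM, in which libraries fall into 2 sets by a constant per library (12 and 8 libraries); these served only to define the sets. The tables of the authors' own comparisons (fold changes and p-values) were not used. Library totals ranged from 16764589 to 24818703 counts.

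Counts were tested with edgeR 4.0.16 (robust quasi-likelihood test, TMM scaling, default filter on low counts, Benjamini-Hochberg adjustment over all genes tested) in R 4.3.3 with limma 3.58.1 and the data.table package, version 1.17.8. Each sample type was fitted with its 3 genotypes, and all 20 libraries together for the contrast of sample types and the interactions. Calls needed an adjusted p below 0.05, and every adjusted p is from edgeR unless DESeq2 (1.42.0) is named. The fits were tested on simulated data. Each library is labelled as a separate sample, and p-values measure the spread between these samples. Plots used matplotlib 3.10.9 with Python 3.11.15.

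All 9 members were named in every comparison, with Ager as the check of genotypes. From each list of adhesion genes up to 4 called genes with the smallest p were named, and for each member the 3 genes nearest in profile were eligible. 1 listed gene is not reported here by name. Members and lists were chosen with earlier results of these data known. Replicate numbers are shared between groups. Same-numbered libraries of lung Ager AHA/AHA and Ager-/- had correlated deviations (over 0.1 in every pair), at 0.139, 0.117 and 0.167. The block changed no member's call there. The only same-numbered pair of WT and Ager-/- neutrophils was at 0.144. Differently numbered libraries reached such values too, as neutrophil Ager AHA/AHA replicate 4 and Ager-/- replicate 1 at 0.296. These correlations therefore do not settle whether same-numbered libraries belong together. Alternatives were RLE scaling, library totals, no filter or a stricter one, a fit that is not robust, a replicate block, the FPKM set as covariate, only the groups compared, each library left out, DESeq2 and a log2 fold threshold of 1. Fitting the first FPKM set alone was added after seeing the data.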

Additional observations from a re-analysis of the deposited data

Results flagged for a closer look

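Among the 18 lung groups of 4 libraries (9 members in each mutant), 3 had a library far from the others, where chance flags about 1 in 20 groups. The members share the same libraries, so these groups are not independent and the count does not show an excess over chance. Itgam was at 6.143 CPM in lung Ager AHA/AHA replicate 4, where the next library was at 3.988 CPM. Itgb1 was at 833.3 CPM in the same library, where the next was at 663.7 CPM. That library also held the highest summed neutrophil markers in lung, 487.1 CPM, whose part in these values was not tested. Scaled within each sample type, Itgam was at 51.8 RPKM in WT neutrophils and 0.954 RPKM in WT lung. Itgb1 lay the other way, at 24.0 RPKM in WT neutrophils and 167 RPKM in WT lung. Cd44 was at 143.1 CPM in lung Ager-/- replicate 5, where the next was at 113.9 CPM. The Ager-/- difference of Icam1 differed between neutrophils and lung, with an interaction of -0.8094 on the log2 scale.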

How the results depend on the processing

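Over all results and alternatives run, 41 values lost a call, 8 gained one, 12 moved and no called value changed sign. In all, 77 uncalled values changed sign. The number of members called was 1 in Ager-/- against WT neutrophils. It was 0 with no filter, with the replicate block, in the first FPKM set, with only the 2 groups compared and with a fold threshold of 1. It was 2 with DESeq2, and it was 0 to 2 with a library left out. With library totals it was also 1, but Itgam lost its call and the member called was Itgb1, higher. In Ager-/- against WT lung it was 1. It was 0 with the replicate block, the FPKM set as covariate, the first FPKM set alone and the fold threshold, and 0 to 1 with a library left out. Between the lung mutants it was 0, and 0 to 1 with a library left out. For the Ager-/- interaction it was 1. It was 0 with library totals, no filter, no robust fit, the replicate block and the fold threshold, 4 with DESeq2, and 0 to 1 with a library left out. For the Ager AHA/AHA interaction it was 0, and 1 with DESeq2. The causes of these changes were not tested.

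The sources do not say what a shared replicate number means. A replicate block adds terms to fits of few libraries and leaves less to estimate the spread. Fewer calls with it therefore do not show that same-numbered libraries belong together. For the interactions the block joined libraries of the same genotype and number across the sample types. With the replicate block the calls over all genes were 52 in place of 1240 in Ager-/- and 19 in place of 423 in Ager AHA/AHA neutrophils, 518 in place of 1659 for the Ager-/- interaction and 22 in place of 266 for the Ager AHA/AHA interaction. With a library left out, the calls over all genes were 180 to 1385 in Ager-/- and 40 to 835 in Ager AHA/AHA neutrophils, 187 to 675 in Ager-/- lung, 332 to 781 between the lung mutants, 41 to 774 for the Ager AHA/AHA interaction and 904 to 1930 for the Ager-/- interaction. With the block Itgam in Ager-/- neutrophils was at -0.51 (edgeR adjusted p = 0.398) and Icam1 in Ager-/- lung at 0.53 (edgeR adjusted p = 0.167). Over all genes DESeq2 called 732 against WT in Ager AHA/AHA neutrophils (edgeR 423), 139 between the mutants' neutrophils (62), 47 in Ager AHA/AHA lung (30), 993 in Ager-/- lung (541), 923 between the mutants' lungs (551), and 1033 and 2526 for the interactions of Ager AHA/AHA and Ager-/- (266 and 1659). Depth limits Itgam in lung most, at 49 to 149 counts per library.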
